A study of Mus musculus with 10 samples.

Results

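The genes of adhesive and matricellular proteins, 10 in number, were followed in mouse embryonic fibroblasts with and without Zbtb4. They were chosen by name, with earlier results of these data known: Fn1, Tnc, Thbs1, Thbs2, Thbs3, Sparc, Postn, Vcan, Spp1 and Tgfbi. Each gene was represented by its brightest probe set, by the mean of all arrays, among probe sets that carry 1 gene symbol in the platform annotation. By this rule 9 of the 10 genes were measured, each by a single probe set, among 22180 genes in all. Spp1, which encodes osteopontin, has no probe set under its symbol in the annotation used and is not analysed here.

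The samples were 5 cultures of Zbtb4 knock-out cells and 5 of wild-type cells, each hybridised as total RNA to a one-colour Affymetrix array. Mouse embryonic fibroblasts are primary connective tissue cells. The labels name the dorsal skin of mid-gestation embryos as their source and also describe mincing embryos freed of head and organs. Strain, sex, passage number and the deleted part of Zbtb4 are not given in the labels, and no treatment is named for either group. The ZBTB4 protein recognises methylated CpG through its zinc fingers, and the comparison asks which transcripts depend on it. The labels number the arrays 1 to 5 within each genotype and do not say whether each is a separate embryo, so the p-values here speak only of the spread among these samples.

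Matricellular proteins are secreted into the extracellular matrix but mainly signal to cells instead of bearing load. Thrombospondins, tenascin-C, SPARC, periostin, osteopontin and TGFBI belong to this class or are commonly grouped with it. Fibronectin is an adhesive scaffold that cells assemble through integrin receptors, and versican is a large proteoglycan that binds hyaluronan. In skin fibroblasts several of these genes are induced by TGF-beta and serum and are abundant in embryonic, healing and fibrotic connective tissue.

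The 10 arrays were alike. Their medians over all probe sets lay between 3.89 and 3.93 on the log2 scale, and any pair of arrays correlated with r from 0.989 to 0.994 across genes, which are not independent replicates. Of 10 fibroblast markers, 8 (Col1a1, Col1a2, Col3a1, Pdgfra, Pdgfrb, Thy1, Dcn and Vim) lay above the upper quartile of every array. None of 12 macrophage, 8 endothelial or 6 measured keratinocyte markers did, while 3 of 5 smooth muscle markers (Acta2, Cnn1 and Tagln) did, as did Sox9, Des and Acta1. Below the median of every array lay 6 of the 8 endothelial and 4 of the 6 keratinocyte markers, but only 2 of the 12 macrophage markers. Y-linked genes were high on 2 arrays of each genotype and low on 3, so both genotypes held cultures of both sexes in equal number. Zbtb4 itself was at 5.04 to 5.76 on the knock-out arrays and at 5.94 to 6.23 on the wild-type arrays. Its log2 difference was -0.62 ± 0.12 (SE, n = 5 each; limma adjusted p over all genes = 0.628).

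As Zbtb4 binds methylated CpG sites, the CpG content before the start sites of these genes was read from a table of RefSeq promoters on GRCm38.p6. The table held 8 of the 10 genes, with 11 start sites, and Fn1 and Thbs1 are not in it. In the 250 bases before the start, the 11 windows held between 3 and 15 CpGs, where the median of all 32851 windows in the table was 6 and the quartiles were 2 and 16. The window of Tgfbi, with 15, held more CpGs than 72.7% of all windows. Those of Thbs2 and of the first Postn start, with 3 each, held more than 29.0%. The windows of Tgfbi, the gene that varied most between cultures, and of Thbs3, Postn and Thbs2, whose relations to each other are given further on, are shown 5′ to 3′ with every CpG in capitals.
Tgfbi, chr13:56609336-56609585, plus strand: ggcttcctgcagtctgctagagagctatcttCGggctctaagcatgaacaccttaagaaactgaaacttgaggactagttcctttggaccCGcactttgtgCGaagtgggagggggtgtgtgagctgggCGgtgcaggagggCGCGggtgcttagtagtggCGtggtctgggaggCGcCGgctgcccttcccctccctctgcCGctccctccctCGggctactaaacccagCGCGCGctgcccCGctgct
Thbs3, chr3:89214930-89215179, plus strand: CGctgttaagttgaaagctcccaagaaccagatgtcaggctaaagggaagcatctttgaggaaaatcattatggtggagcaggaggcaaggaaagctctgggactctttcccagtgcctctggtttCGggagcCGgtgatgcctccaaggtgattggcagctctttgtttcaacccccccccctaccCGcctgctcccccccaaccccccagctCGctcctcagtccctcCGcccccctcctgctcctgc
Postn, chr3:54359017-54359266, plus strand: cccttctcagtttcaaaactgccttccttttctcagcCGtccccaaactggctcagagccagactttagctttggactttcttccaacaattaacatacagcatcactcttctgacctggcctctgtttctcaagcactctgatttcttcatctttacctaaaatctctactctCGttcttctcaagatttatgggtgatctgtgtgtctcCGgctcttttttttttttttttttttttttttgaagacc
Thbs2, chr17:14694263-14694512, minus strand: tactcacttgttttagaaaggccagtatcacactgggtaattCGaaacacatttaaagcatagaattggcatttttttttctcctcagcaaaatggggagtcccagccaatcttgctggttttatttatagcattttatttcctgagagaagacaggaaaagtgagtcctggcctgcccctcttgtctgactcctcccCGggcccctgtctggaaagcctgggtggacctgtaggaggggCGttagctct
In the 125 bases nearest the start lie 12 of the 15 CpGs of Tgfbi, 5 of the 6 of Thbs3, and 2 of the 3 in each of the windows shown for Postn and Thbs2. The motif TCCTGCNA, the consensus of the related methyl-CpG binding protein Kaiso, was searched on both strands and was in 0 of the 11 windows, against 4.03% of all windows. Counted on either strand and at any position, the TATA motif TATAAA was in 5 of the 11 and in 12.4% of all. The GC box GGGCGG was in 5 of the 11 and in 32.7% of all. The distance of a match from the start was not considered, so a match need not be a working TATA box. The 2 windows of Tnc overlap and share 1 match of each of these motifs, which is counted in both. The arrays do not measure methylation or binding at these windows.

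None of the 9 measured genes differed between genotypes past the threshold. The knock-out mean was the higher one for Fn1, Thbs1, Thbs2 and Thbs3 and the lower one for Tnc, Sparc, Postn, Vcan and Tgfbi. That is 4 higher and 5 lower, where 50.7% of all 22180 genes were higher and 49.3% lower. In limma 0 of the 9 passed an adjusted p of 0.05, as did 0 of all genes (0%), and 0 of the 9 had an unadjusted p under 0.05, against 5.98% of all genes. The smallest adjusted p among the 9 was 0.848, for Fn1. By the exact permutation test (two-sided, over all splits of the arrays into 5 and 5), 2 of the 9, Fn1 and Sparc, had an unadjusted p under 0.05, against 5.8% of all genes. For 0 of the 9 did the groups of arrays lie fully apart, as they did for 0.987% of all genes. The median log2 difference of the 9 was -0.060, and that of all genes 0.0020. Levels of different probe sets are not comparable, so each gene is compared only with itself.

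**Figure D1:**
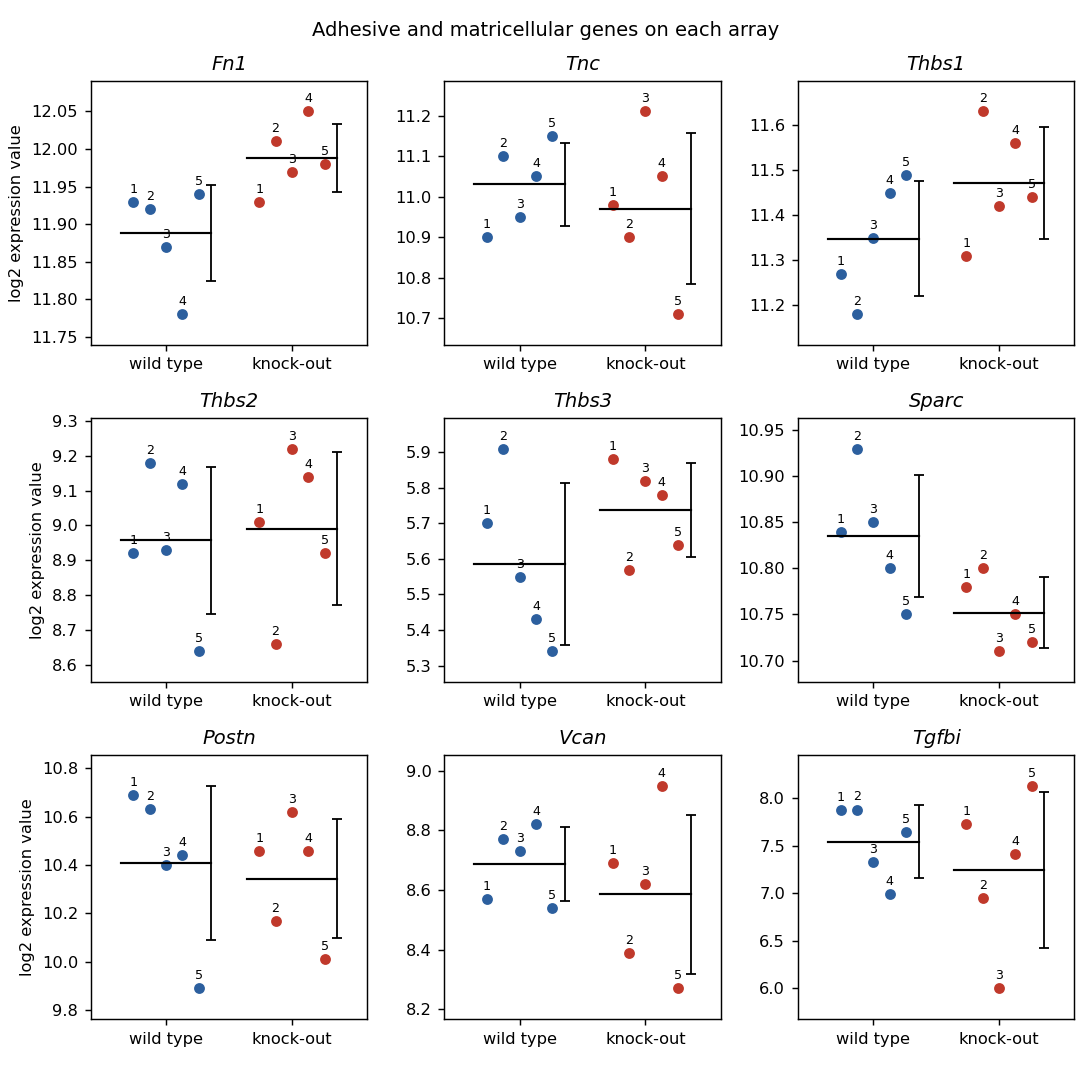
Log2 expression value of each of the 9 measured genes on every array, wild type in blue and knock-out in red, with the array number beside each point. Horizontal lines are genotype means and bars are 1 SD (n = 5), and each panel has its own axis. Tgfbi spans 6.00 to 8.13, while Fn1 and Sparc stay within narrow bands, and the genotypes overlap in every panel.

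Fibronectin, the scaffold protein on which other matrix molecules are laid down, was among the steadiest of these transcripts. The knock-out arrays 1 to 5 gave Fn1 log2 values of 11.93, 12.01, 11.97, 12.05 and 11.98, and the wild-type arrays 11.93, 11.92, 11.87, 11.78 and 11.94. On 4 of the 5 knock-out arrays the value lay above every wild-type array, and knock-out array 1 fell inside the wild-type range. The knock-out mean was 11.99 ± 0.045 and the wild-type mean 11.89 ± 0.064 (SD, n = 5 each). The difference was 0.10 with a 95% interval from -0.044 to 0.24, so a fold of up to 1.18 is inside it. The exact permutation test gave p = 0.0238 without adjustment, and limma gave an unadjusted p of 0.158. The 2 tests differ in the spread they use: limma draws the small SD of Fn1 towards that of all genes, and 3.41% of genes had an SD over the 10 arrays at or below that of Fn1.

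Versican carries chondroitin sulphate chains and forms hyaluronan-rich pericellular matrix around fibroblasts. Vcan read 8.69, 8.39, 8.62, 8.95 and 8.27 on knock-out arrays 1 to 5 and 8.57, 8.77, 8.73, 8.82 and 8.54 on wild-type arrays 1 to 5. The knock-out arrays were the more spread, with both the highest value, on array 4, and the 2 lowest, on arrays 2 and 5. The difference was -0.10 with a 95% interval from -0.36 to 0.16 (limma adjusted p = 0.910). Leaving out knock-out array 4 gave -0.19, and leaving out knock-out array 5 gave -0.024.

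Tenascin-C, a hexameric glycoprotein that weakens cell adhesion to fibronectin, also overlapped between genotypes. Tnc was at 10.98, 10.90, 11.21, 11.05 and 10.71 on the knock-out arrays and at 10.90, 11.10, 10.95, 11.05 and 11.15 on the wild-type arrays. Knock-out arrays 3 and 5 held the highest and the lowest value of all 10. The difference was -0.060 with a 95% interval from -0.27 to 0.15 (limma adjusted p = 0.940), and it turned to 0.0049 without knock-out array 5.

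The thrombospondins are secreted calcium-binding glycoproteins. The products of Thbs1 and Thbs2 are trimers that curb angiogenesis, the first of them also activating latent TGF-beta, while that of Thbs3 belongs to the pentameric branch of the family. Thbs1 read 11.31, 11.63, 11.42, 11.56 and 11.44 in knock-out and 11.27, 11.18, 11.35, 11.45 and 11.49 in wild-type cells. Knock-out arrays 2 and 4 lay above the wild-type range and the other 3 within it. The difference was 0.12 with a 95% interval from -0.064 to 0.31 (limma adjusted p = 0.854; exact permutation p = 0.167).

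Thbs2 read 9.01, 8.66, 9.22, 9.14 and 8.92 in knock-out and 8.92, 9.18, 8.93, 9.12 and 8.64 in wild-type cells, with a single low array in each genotype. The difference was 0.033 with a 95% interval from -0.23 to 0.30 (limma adjusted p = 0.980), and it turned to -0.046 when wild-type array 5 was left out, to -0.025 when knock-out array 3 was left out and to -0.0046 when knock-out array 4 was. Thbs3 read 5.88, 5.57, 5.82, 5.78 and 5.64 in knock-out and 5.70, 5.91, 5.55, 5.43 and 5.34 in wild-type cells. The highest and the 3 lowest of its 10 values were wild-type, so the knock-out values lay inside the wild-type range. The difference of 0.15, with a 95% interval from -0.087 to 0.39 (limma adjusted p = 0.857), came to 0.23 without wild-type array 2 and to 0.090 without wild-type array 5.

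SPARC binds collagen and calcium and takes part in fibril assembly. Sparc read 10.78, 10.80, 10.71, 10.75 and 10.72 on the knock-out arrays and 10.84, 10.93, 10.85, 10.80 and 10.75 on the wild-type arrays. On 4 of the 5 wild-type arrays the value lay above every knock-out array, wild-type array 4 only narrowly, and wild-type array 5 fell among them. The knock-out mean was 10.75 ± 0.038 and the wild-type mean 10.83 ± 0.066 (SD, n = 5 each). They differed by -0.083, with a 95% interval from -0.23 to 0.060. The exact permutation test gave p = 0.0476 without adjustment and limma an adjusted p of 0.864. As for Fn1, the SD over the 10 arrays was small, at or above that of 2.16% of genes.

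Periostin, a ligand of integrins that promotes collagen crosslinking, varied more between cultures than between genotypes. Postn read 10.46, 10.17, 10.62, 10.46 and 10.01 in knock-out and 10.69, 10.63, 10.40, 10.44 and 9.89 in wild-type cells. Array 5 was the lowest of its genotype in both groups. The difference was -0.066 with a 95% interval from -0.40 to 0.27 (limma adjusted p = 0.961). It came to -0.20 without wild-type array 5 and turned to 0.017 when knock-out array 5 was left out and to 0.0052 when wild-type array 1 was.

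TGFBI, a secreted protein with fasciclin domains named for its induction by TGF-beta, varied most. Tgfbi read 7.73, 6.95, 6.00, 7.41 and 8.13 on knock-out arrays 1 to 5 and 7.87, 7.88, 7.33, 6.99 and 7.64 on wild-type arrays 1 to 5. The highest and the lowest value were both knock-out, 2.12 apart on the log2 scale or 4.36-fold. Its SD over the 10 arrays was at or above that of 99.8% of all genes. The knock-out mean was 7.24 ± 0.82 and the wild-type mean 7.54 ± 0.38 (SD, n = 5 each). The difference of -0.30 had a 95% interval from -0.99 to 0.40 (limma adjusted p = 0.900), wide enough to hold a 1.99-fold lower level, and it turned to 0.012 without knock-out array 3.

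**Figure D2:**
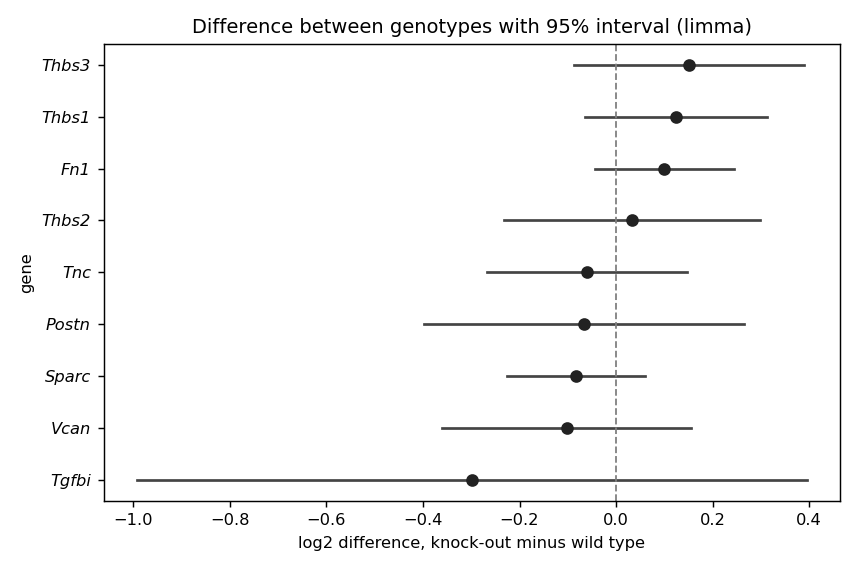
Log2 difference between genotypes, knock-out minus wild type, for the 9 measured genes, with the 95% interval from limma; the dashed line marks no difference. Every interval includes 0, and the interval of Tgfbi, from -0.99 to 0.40, is the widest.

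Knock-out array 3, lowest for Tgfbi, had the highest level of macrophage markers, and knock-out array 5, highest for Tgfbi, the lowest. The mean log2 level of the 12 macrophage markers was 5.41 on the first of these and 4.04 on the second. The full range was 4.04 to 5.41 in knock-out and 4.34 to 4.75 in wild-type cells. Other arrays were mixed. Wild-type array 4, lowest of its genotype for Tgfbi at 6.99, had the highest wild-type marker level. Knock-out array 2 was low for both, with Tgfbi at 6.95 and the markers at 4.41. Wild-type array 3, with Tgfbi at 7.33, below its genotype mean, had the lowest wild-type marker level. Of these 12 markers, 10 were higher in the knock-out mean, 2 were lower and 0 passed an adjusted p of 0.05 in limma. All 5 smooth muscle markers were higher in the knock-out mean, by a median of 0.30, with 2 at an unadjusted limma p under 0.05 and 0 adjusted; they averaged 8.83 to 9.14 in knock-out and 8.58 to 9.05 in wild-type cells. Of 8 endothelial markers 7 were higher, by a median of 0.13 over the 8, with 2 at an unadjusted limma p under 0.05 and 0 adjusted, and their averages of 3.60 to 3.85 and 3.44 to 3.80 overlapped too. Of all genes, 50.7% were higher in the knock-out mean and 5.98% had an unadjusted limma p under 0.05. The part of these markers in the values of Tgfbi and the other genes was not tested, and fewer cells of a type and less RNA per cell cannot be told apart in bulk RNA. The 10 fibroblast markers averaged 8.66 on the former array and 8.84 on the latter. They were lowest, at 8.46, on wild-type array 5, where Postn, Thbs3 and Thbs2 were lowest too. Among the wild-type arrays, this one was also lowest for Sparc and Vcan, but highest for Fn1 (11.94), Thbs1 (11.49) and Tnc (11.15). The part of fibroblast content in those values was not tested.

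Deviations from the genotype means were compared for the 36 pairs of measured genes over the 10 arrays. By Pearson's r 22 pairs were positive and 14 negative, from -0.87 to 0.80, and 0 pairs had an adjusted p under 0.05, while 5 had an unadjusted p under 0.05. The strongest was the opposition of 2 thrombospondins. Thbs1 and Thbs3 gave r = -0.87 (permutation p = 0.0033, adjusted over the 36 pairs 0.119) and Spearman's rho = -0.94 (permutation p = 0.00089, adjusted 0.032). Without the 2 arrays farthest from the median of Thbs1, r was -0.78. With single arrays left out, the r of this pair ran from -0.94 to -0.81 and its adjusted p from 0.013 to 0.453. The adjusted p of its rho ran from 0.0241 to 0.302 in the same way, and was under 0.05 only without knock-out array 4 and without knock-out array 5. In wild-type cells, array 2 had the lowest Thbs1 and the highest Thbs3, and array 5 the highest Thbs1 and the lowest Thbs3. In knock-out cells, arrays 1 and 2 held the same opposed ends.

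Postn, Thbs2, Thbs3 and Vcan are grouped here by these same values, so their shared sign is a description and no test. All 6 pairs among them had a positive r, and 0 passed the adjusted threshold. Tnc and Sparc also had a positive r with each of these genes, up to 0.55 for Tnc with Vcan and 0.67 for Sparc with Thbs3. With each other, Tnc and Sparc gave -0.17. Thbs3 and Postn gave r = 0.80 and rho = 0.81 (permutation p = 0.0138 and 0.0145, adjusted 0.249 and 0.262), or r = 0.75 without the 2 arrays farthest from the median. Thbs2 and Postn gave r = 0.76 and rho = 0.67 (permutation p = 0.0219 and 0.0506, adjusted 0.263 and 0.453), or r = 0.53 without 2 arrays. Thbs2 and Vcan gave r = 0.68 and rho = 0.70 (permutation p = 0.0435 and 0.0478, adjusted 0.354 and 0.453), or r = 0.61 without 2 arrays. The other 3 of the 6 pairs gave lower values. Thbs2 and Thbs3 gave r = 0.66 and rho = 0.61 (permutation p = 0.0491 and 0.0779, adjusted 0.354 and 0.468), or r = 0.33 without 2 arrays. Postn and Vcan gave r = 0.56 and rho = 0.44 (permutation p = 0.0866 and 0.207, adjusted 0.422 and 0.589), or r = 0.20 without 2 arrays. Thbs3 and Vcan gave r = 0.41 and rho = 0.42 (permutation p = 0.171 and 0.225, adjusted 0.497 and 0.589), or r = 0.34 without 2 arrays. Wild-type array 2, with Thbs3 at 0.32, Postn at 0.22 and Thbs2 at 0.22 above the genotype mean, and knock-out array 2, with -0.17, -0.17 and -0.33, show the 2 directions.

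**Figure D3:**
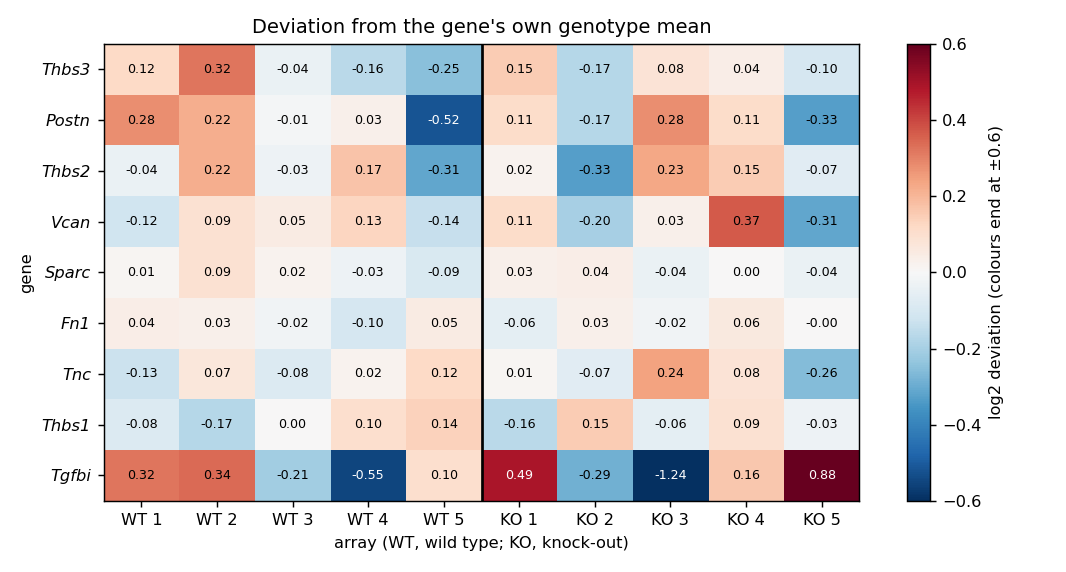
Deviation of each gene from its own genotype mean on every array, in log2 units, red above and blue below the mean; colours end at ±0.6, and the printed values are exact. Thbs3, Postn and Thbs2 are all below the mean on wild-type array 5 and on knock-out arrays 2 and 5, and Tgfbi ranges from -1.24 to 0.88.

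For each measured gene the most similar genes were sought by Pearson's r of these deviations over the 10 arrays, among 11089 other genes at or above the median level. As the best of so many, these values are descriptions without a test. Tgfbi was most like Tgfbr2, which encodes the type II TGF-beta receptor, with r = 0.98 and rho = 0.95. Tgfbr2 read 7.50, 7.28, 6.80, 7.47 and 7.80 on the knock-out arrays and 7.54, 7.47, 7.33, 7.13 and 7.33 on the wild-type arrays. Its lowest and highest arrays, knock-out 3 and 5, were those of Tgfbi, and without the 2 arrays farthest from the median of Tgfbi r was 0.94. Gas2 followed for Tgfbi, with r = 0.94.

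Thbs1 was most like Cltb (r = 0.96) and Sdc3 (0.94), the latter a heparan sulphate proteoglycan of the cell surface. Thbs2 was most like Fam20a and Cth (both 0.96), and Thbs3 most like Ppp1r15a (0.97) and Scarb2 (0.96). Postn came with Ralgps2 (0.97) and Mettl14 (0.95), Sparc with Cdon (0.96) and Hip1 (0.94), and Vcan with Uggt1 (0.95) and Lnx2 (0.92). Fn1 came with C1d and Vps37a (both 0.94), and Tnc with Atp5md (0.97) and Krt20 (0.96). None of the 18 genes named in this way was itself one of the 9.

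**Figure D4:**
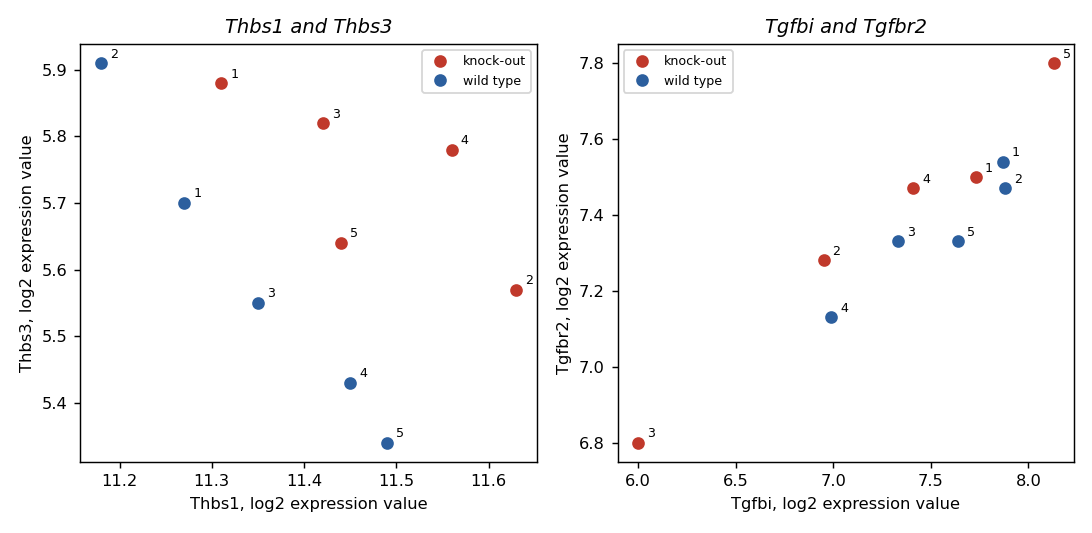
Log2 expression values of Thbs1 against Thbs3 (left) and of Tgfbi against Tgfbr2 (right) on the 10 arrays, knock-out in red and wild type in blue, with the array number beside each point. Within each genotype Thbs3 tends to be lower where Thbs1 is higher, and Tgfbr2 goes from 6.80 to 7.80 as Tgfbi goes from 6.00 to 8.13.

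Other genes of the same families were read from a list of 25, all measured, which holds further tenascins, thrombospondins and SPARC relatives and the CCN proteins. Means were higher for 13 and lower for 12 of them in knock-out cells, the median difference being 0.0058 (-0.0068 with arrays centred on their medians, and from -0.019 to 0.033 with single arrays left out), and 0 passed in limma at an adjusted p of 0.05. Vtn, the adhesive protein vitronectin, differed by 0.25 (limma adjusted p = 0.829, exact permutation p = 0.0873). It was the only 1 of the 25 with an unadjusted limma p under 0.05 (0.0394), beside 5.98% of all genes. Its values ran from 3.11 to 3.49 on the knock-out arrays and from 2.73 to 3.27 on the wild-type arrays. All of them lay below the array medians of 3.89 to 3.93. The CCN growth factor gene Ccn2, a partner of integrins and target of TGF-beta, differed by 0.0058, and Fstl1 by -0.011. Tnxb differed by 0.15 (unadjusted limma p = 0.0718, exact permutation p = 0.0476) and Spock1 by 0.16 (0.0810 and 0.0952). Tnxb and Spock1 were near or below the array medians too. Their knock-out and wild-type means were 3.97 and 3.82 for Tnxb and 3.74 and 3.58 for Spock1.

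The receptor list held 20 genes, all measured, with 14 means higher and 6 lower, a median difference of 0.045 and 0 at an adjusted or unadjusted limma p under 0.05. That median was 0.012 when knock-out array 3 was left out, 0.022 for array 2 and 0.025 for array 4 of the same genotype. The fibronectin receptor subunits Itga5 and Itgb1 differed by 0.16 and 0.082, and the vitronectin receptor subunit Itgav by -0.031. Calcrl, which the list also held, differed by -0.24, and its product is best known as a receptor for adrenomedullin, not for the proteins followed here. With single arrays left out Itga5 ran from 0.079 to 0.25 and Itgb1 from 0.053 to 0.12, and Itgav came to -0.15 when its probe sets were averaged. Partners of versican and hyaluronan numbered 11, with 6 higher, 5 lower and 0 passing. The link protein gene Hapln3 differed by 0.19 (unadjusted limma p = 0.0319, limma adjusted p = 0.821, exact permutation p = 0.0317). It was the only 1 of the 11 with an unadjusted limma p under 0.05, beside 5.98% of all genes. Its knock-out and wild-type means, 3.83 and 3.64, were near or below the array medians of 3.89 to 3.93. The hyaluronan synthase gene Has2 differed by -0.24, Fbln1 by -0.22 and Fbln2 by 0.029.

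Proteases that process these proteins numbered 16, with 9 higher, 7 lower and 0 passing in limma at an adjusted p of 0.05. Of the 16, 2 had an unadjusted limma p under 0.05, beside 5.98% of all genes, and both were lower in knock-out cells. Adamts9 had a knock-out mean of 5.18 ± 0.20 and a wild-type mean of 5.66 ± 0.28 (SD, n = 5 each), which differ by -0.48 (limma adjusted p = 0.804). Adamts1 had 7.85 ± 0.19 and 8.12 ± 0.12 in the same order, which differ by -0.27 (limma adjusted p = 0.821). The matrix metalloproteinase genes Mmp2 and Mmp14 differed by 0.20 and 0.11. Of 14 measured genes of TGF-beta input, 9 were higher, 5 were lower and 0 passed. The ligand genes Tgfb3 and Tgfb2 differed by 0.21 and 0.25 (unadjusted limma p = 0.0308 and 0.0381, adjusted p = 0.821 and 0.823; exact permutation p = 0.0397 and 0.0714), the latency protein gene Ltbp3 by 0.15 and Ltbp1 by 0.040.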

How the data were processed

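The authors deposited log2 expression values of 41345 probe sets on each of the 10 arrays; the log2 scale was judged from their range. The probe summary and the normalization were not given in the sources used here; if arrays were made equal, a change in RNA content per cell cannot be seen. Of the probe sets, 23521 had 1 symbol, 1814 several and 16010 none, and only the first were used. Of these, 23328 were found in RefSeq by Entrez ID, with 0 symbols changed. Genotypes were compared with lmFit and eBayes of limma 3.58.1 in R 4.3.3 over 22180 genes, without filter or covariate, with Benjamini-Hochberg adjustment over all genes at 0.05. Single values were also compared by exact permutation, which cannot give less than p = 0.00794. Relations used 100000 within-genotype permutations. The scripts were tested on simulated data. No signal-over-background values came with the table, so no probe set was called undetected, and the number of arrays limits the precision (median SE 0.101). The members and lists were chosen with earlier results of these data known. Named genes were Zbtb4, all members, per list the 3 smallest p-values and 2 highest means, and per member the 2 most similar genes. Alternatives were other scalings, filters, probe sets, eBayes settings, weights, a replicate block, a Y-linked covariate and single arrays left out.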

Additional observations from a re-analysis of the deposited data

Results flagged for a closer look

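Among 62 groups of 5 arrays examined for the genes named, a single array lay far from the others in 3, about the number that chance gives at 1 in 20. Adamts1 was at 7.92 on wild-type array 2, against 8.13 to 8.21 on the other wild-type arrays. Fbln1 was at 6.35 on knock-out array 2, where the other knock-out arrays ran from 6.82 to 6.98. Mmp2 was at 9.20 on knock-out array 3, where the other knock-out arrays ran from 9.71 to 9.87.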

How the results depend on the processing

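In every alternative run (quantile normalization, median centring, the dimmest 40% of genes left out, averaged or single probe sets, trend and robust eBayes, array weights, the replicate block, the Y-linked covariate, each array left out, and a threshold of 0.1), 0 of the 9 members passed. Over all genes 0 passed too, except with single arrays left out, where the count ran from 0 to 1. Pairs of members passing by Pearson's r numbered 0 to 1 with single arrays left out (a check added after the data were seen), the 1 being Thbs1 with Thbs3. With single arrays left out, differences that changed sign ran from -0.12 to 0.0049 for Tnc, -0.046 to 0.12 for Thbs2, -0.20 to 0.017 for Postn and -0.52 to 0.012 for Tgfbi. They ran from -0.026 to 0.039 for Ccn2, -0.069 to 0.061 for Fstl1, -0.025 to 0.11 for Fbln2 and -0.058 to 0.18 for Ltbp1. Ccn2 also changed sign under median centring, to -0.0068, and Fstl1 under array weights, to 0.0034. The cause was not tested. Fn1, Thbs1, Thbs3, Sparc and Vcan kept their direction in all 19 alternatives. Trend and robust eBayes gave smaller SEs for the steadiest members. For Fn1 the SE was 0.039, against 0.067 in the main comparison (limma adjusted p = 0.839 and 0.848). For Sparc it was 0.043, against 0.067 (limma adjusted p = 0.841 and 0.864). The intervals given for these genes hold for the main comparison only. The replicate numbers are not said to pair the arrays. Y-linked genes were high on arrays 1 and 3 and low on arrays 2, 4 and 5 in both genotypes, so same-numbered arrays matched in sex. The wild-type array most like a knock-out array had the same number for arrays 1 and 5 only. Whether the numbers pair the arrays cannot be told from these values. Correlations of same-numbered deviations ran from -0.045 to 0.165, and with the number as a block 0 genes and 0 members passed. The median of the versican partner list moved from 0.0028 to -0.064 without wild-type array 2, and to -0.043 with the dimmest 40% of genes left out. It came to -0.012 and -0.0099 under quantile normalization and median centring. With single arrays left out it ran from -0.064 to 0.027.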

Other observations

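Over the same 10 arrays, the deviations of Tgfbi were compared with those of the 14 measured genes of TGF-beta input, as a description without a test. The coreceptor gene Tgfbr3 gave r = 0.82 and the receptor gene Tgfbr1 0.57. Of the latency protein genes, Ltbp1 and Ltbp3 gave 0.75 and 0.65, but Ltbp2 0.14. Of the ligand genes, Tgfb2 gave 0.67, Tgfb3 -0.30 and Tgfb1 -0.74. Smad3 and Smad4 gave 0.49 and 0.42. The feedback inhibitor genes Smad7 and Skil gave -0.27 each, and Smad2 0.05. All these values share the same arrays, and knock-out arrays 3 and 5 hold the extreme values of Tgfbi.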
